A study of Arabidopsis thaliana with 15 samples.

Results

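The microRNA miR396 and the GROWTH-REGULATING FACTOR (GRF) genes were read in leaves of prp4k3 and Col-0 Arabidopsis thaliana. The members were taken by name: the rows ath-miR396a-5p and ath-miR396b-5p of the small RNA table, which lists 427 miRNA rows, and 8 GRF loci of the RNA-seq table, which lists 73194 features. They are thus 10 of 73621 features, and the rule that picks them uses names only. The GRF genes were matched by locus, because 14-3-3 proteins (general regulatory factors) carry the same symbols in the reference gene table. The loci were GRF1 (AT2G22840), GRF2 (AT4G37740), GRF3 (AT2G36400), GRF4 (AT3G52910), GRF5 (AT3G13960), GRF7 (AT5G53660), GRF8 (AT4G24150) and GRF9 (AT2G45480).

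GRF proteins are plant transcription factors that promote cell proliferation in young leaves and other growing organs. They bind DNA together with GRF-INTERACTING FACTOR (GIF) coactivators, which recruit SWI/SNF chromatin remodellers. In Arabidopsis miR396 is made from the MIR396A and MIR396B loci, accumulates as leaf cells stop dividing, and directs cleavage of most GRF mRNAs; GRF5 and GRF6 are known to lack its target site. Mature miR396a and miR396b differ only at their last base, so they are expected to share targets, and reads can be hard to assign to one of them.

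The series profiled leaves of untreated 3-week-old plants with total RNA-seq and small RNA-seq. The prp4k3 group is a line that the design text also calls amiR-PRP4K3, amiR being the usual short form of artificial microRNA; the sources used here do not give the promoter of the construct or the number of independent lines. The other group is Col-0, the wild-type accession. Each genotype had 3 libraries per assay, but the labels do not state whether these came from separate plants. The p-values therefore reflect the variation among 3 libraries a group, part or all of which may be technical. A further 3 se-2 samples were not analysed here.

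RNA-seq libraries held 16041754 to 16955629 counts in prp4k3 and 18305640 to 19344157 in Col-0, and small RNA libraries 305617 to 636914 in prp4k3 and 792586 to 1156591 in Col-0. Levels are CPM, counts per 1e+06 reads scaled by TMM, a scaling meant to set the typical feature equal between libraries. The median log2 fold change of all miRNAs tested was still -0.136 with TMM, and -0.06 with total-count scaling. As a check of the labels, 3 loci known outside these files as the PRP4K kinase genes were read; the files and the reference table pair no gene name with them, and which of them the construct targets is not stated. AT3G25840 had 6.41, 5.99 and 6.36 CPM in prp4k3, against 11.06, 9.70 and 9.32 CPM in Col-0, a fall of 0.68 ± 0.13 (SE) on the log2 scale (edgeR adjusted p = 0.00116). AT1G13350 did not pass (-0.41 ± 0.18, adjusted p = 0.0646), and AT3G53640 had 0 counts in every library, where a floor of 3 counts corresponds to 0.155 to 0.187 CPM before TMM scaling. Of all features tested, 31.9% were called lower and 34% lay lower with no overlap, so the fall of AT3G25840 is a weak check. With total-count scaling the median of all tested genes lay at a log2 fold change of 0.857, against 0.017 with TMM. AT3G25840 then lay at 0.16 (adjusted p = 0.282), and AT1G13350 at 0.43, called higher (adjusted p = 0.0416). Changes are therefore given relative to the TMM scale, and for the genes named with values a direction that total-count scaling turns is given.

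One small RNA library stood apart. The counts of prp4k3 replicate 2 differed from those of prp4k3 replicates 1 and 3 with a chi-square per degree of freedom of 257 and 262, against 8.71 between replicates 1 and 3, and its TMM factor was 0.816 against 1.14 in both others. Fold changes of the miR396 strands are given with and without it, and shares by library.

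miR396b-5p was lower in prp4k3, while the more abundant miR396a-5p did not pass the test. miR396b-5p had 27303, 25999 and 31210 CPM in prp4k3, against 64999, 68264 and 72160 CPM in Col-0. The genotypes did not overlap, and the lowest Col-0 library lay above every prp4k3 library. The means were 28171 ± 2712 CPM in prp4k3 and 68474 ± 3585 CPM in Col-0 (SD, n = 3 each), a fall of 1.28 ± 0.20 on the log2 scale (edgeR quasi-likelihood test, adjusted p = 0.000962). Without prp4k3 replicate 2 the fall was 1.21 ± 0.11 (adjusted p = 2.57e-08), and with total-count scaling it was 1.20 ± 0.23 (adjusted p = 0.0033). Of the 215 miRNAs tested, 37.2% were called and 18.6% were called lower in prp4k3, and 28.4% lay lower with no overlap between the genotypes, so a fall of miR396b-5p is one among many in this table. The authors' deposited table gives miR396b-5p a log2 fold change of -1.196 (adjusted p = 1.20e-07).

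miR396a-5p had 99161, 126601 and 92635 CPM in prp4k3, against 141817, 130915 and 109147 CPM in Col-0. The highest prp4k3 library, replicate 2, lay above the lowest Col-0 library, so the genotypes overlapped. The log2 fold change was -0.26 ± 0.23 (adjusted p = 0.382), beside a median of -0.136 for all miRNAs tested. Of the 13 alternatives run, it passed only the one lacking prp4k3 replicate 2 (-0.39 ± 0.11, adjusted p = 0.00739), and it lay above 0 without prp4k3 replicate 1 (0.09 ± 0.36) or replicate 3 (0.08 ± 0.40). In the authors' deposited table it is -0.22 with an adjusted p of 0.0128. Within its library miR396a-5p ranked first or second among all miRNA rows in each of the 6 libraries. miR396b-5p ranked 13, 14 and 13 in the prp4k3 libraries and 3 in each Col-0 library.

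**Figure D1:**
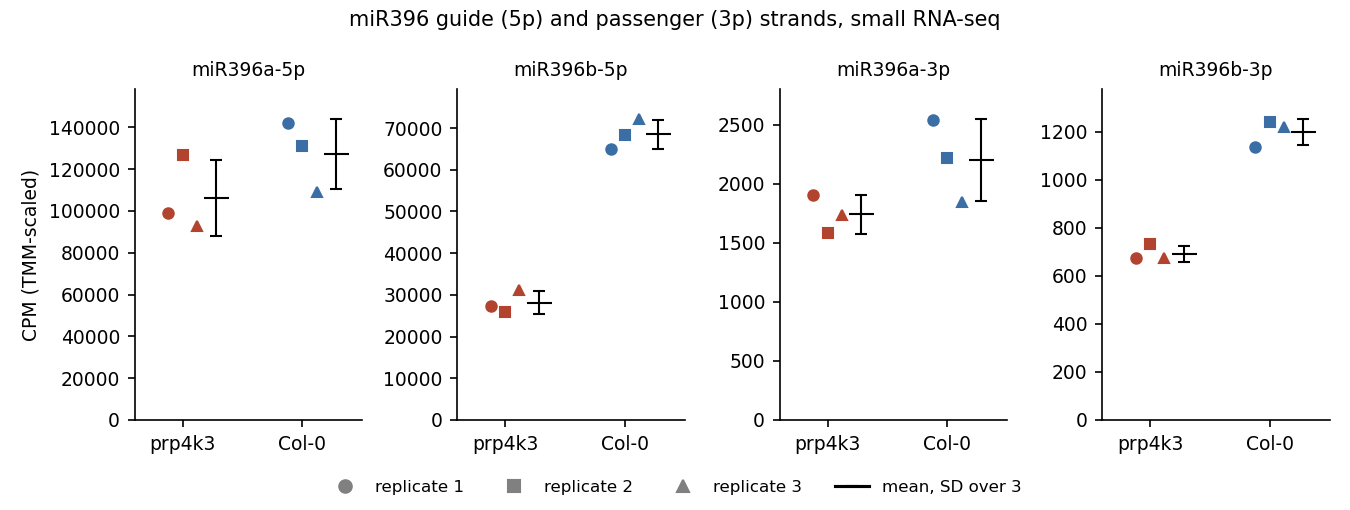
TMM-scaled levels (CPM, vertical axes from 0, a separate scale for each strand) of the miR396 guide strands (5p) and passenger strands (3p) in the 3 prp4k3 libraries and the 3 Col-0 libraries; points are libraries and black bars are mean and SD. miR396b-5p and miR396b-3p separate the genotypes, with prp4k3 lower, while miR396a-5p overlaps (92635 to 126601 CPM in prp4k3 and 109147 to 141817 CPM in Col-0).

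Since reads of the pair may be split between the rows, their sum was also taken. Together they held 14.42%, 12.46% and 14.11% of all miRNA reads in prp4k3, against 20.28%, 19.85% and 17.49% in Col-0. Every prp4k3 value lay below every Col-0 value. On the TMM scale the sum had a log2 fold change of -0.54 ± 0.20, beside a median of -0.136 for all miRNAs tested. It was -0.62 ± 0.098 without prp4k3 replicate 2, but -0.20 ± 0.35 without prp4k3 replicate 1 and -0.24 ± 0.41 without prp4k3 replicate 3. With total-count scaling the sum was at -0.49 ± 0.15, and with upper-quartile factors at -0.41 ± 0.355.

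The balance within the pair needs no scaling between libraries. miR396b-5p made up 21.59%, 17.04% and 25.2% of the pair's reads in prp4k3, against 31.43%, 34.27% and 39.8% in Col-0, and the 95% Wilson interval of each share spanned less than 1 percentage point. The mean share was 21.28% ± 4.09 in prp4k3 and 35.17% ± 4.26 in Col-0 (SD, n = 3 each). The genotypes did not overlap. A two-sided exact permutation test gave p = 0.1 (0.22 after Benjamini-Hochberg adjustment over the 11 shares examined), and no smaller p can be reached with 3 libraries a group. The intervals cover counting error only.

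The passenger strands, which are the less stable partners of the miRNA duplex, were far less abundant. miR396b-3p had 674, 731 and 672 CPM in prp4k3, against 1135, 1238 and 1218 CPM in Col-0. It fell, like its guide strand and again with no overlap, by 0.79 ± 0.15 on the log2 scale (adjusted p = 0.00269). Without prp4k3 replicate 1 or replicate 3 it no longer passed (-0.48, adjusted p = 0.0963, and -0.54, adjusted p = 0.0659), and without replicate 2 it was -0.81 (adjusted p = 0.000164). With total-count scaling it was -0.73 ± 0.24 (adjusted p = 0.045). In the authors' deposited table miR396b-3p is at -0.726 with an adjusted p of 0.256, so it is not called there. miR396a-3p averaged 1741 ± 164 CPM in prp4k3 and 2200 ± 346 CPM in Col-0 and did not pass (-0.34 ± 0.18, adjusted p = 0.167; -0.25, adjusted p = 0.195, without prp4k3 replicate 2). The passenger share of the miR396b duplex was 2.41%, 2.73% and 2.11% in prp4k3, against 1.72%, 1.78% and 1.66% in Col-0, higher in each prp4k3 library than in any Col-0 library (exact permutation p = 0.1, adjusted p = 0.22). For the miR396a duplex it was 1.89%, 1.23% and 1.84% in prp4k3 and 1.76%, 1.67% and 1.66% in Col-0, and these overlapped.

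The precursor loci were almost unread in RNA-seq. MIR396A (AT2G10606) had 2, 1 and 0 counts in prp4k3, against 3, 4 and 1 in Col-0, a ratio of 0.236 with an exact 95% counting interval of 0.0404 to 0.985. MIR396B (AT5G35407) had 1 count over the prp4k3 libraries and 3 over the Col-0 libraries, a ratio of 0.21 with an interval of 0.004 to 2.62. These ratios pool the libraries of a genotype on the TMM scale, and ratios with total-count scaling were not computed. The upper bound below 1 for MIR396A may therefore depend on the scaling. Its libraries also overlapped (0.087 CPM in prp4k3 replicate 1, 0.074 CPM in Col-0 replicate 3). Neither locus passed the filter on low counts. A difference was not detectable beyond counting error for MIR396B, and for MIR396A it rests on 3 against 8 counts.

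Among the GRF genes 1 was higher and 1 lower in prp4k3, and most did not pass the test. Of the 8 loci, 7 passed the filter on low counts; GRF8 rose, GRF4 fell, and GRF1, GRF2, GRF3, GRF5 and GRF9 were not called. Of the 18609 features tested, 65.8% were called, 33.9% higher and 31.9% lower, and this background stands beside the 2 of 7 GRF genes, with no test of the difference. The median log2 fold change of the 7 was -0.02, beside 0.017 for all features. Of the 7 GRF genes known to carry a miR396 site, 6 were tested, with 1 higher and 1 lower. DESeq2 called the same pair, GRF4 and GRF8, with 61.5% of all features called. With total-count scaling 6 of the 7 were called higher and none lower (GRF4 the exception, -0.36, adjusted p = 0.118), where 67.1% of all features were called higher and 9.81% lower.

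GRF4, which promotes leaf and cotyledon growth, was the lower gene. It had 137, 80 and 99 counts in prp4k3 and 125, 179 and 154 counts in Col-0, or 5.97, 3.71 and 4.53 CPM in prp4k3 against 9.22, 12.1 and 11.4 CPM in Col-0. All prp4k3 libraries lay below all Col-0 libraries, as was so for 34% of all features tested. The mean was 4.74 ± 1.14 CPM in prp4k3 and 10.9 ± 1.52 CPM in Col-0 (SD, n = 3 each), a fall of 1.20 ± 0.19 on the log2 scale (edgeR adjusted p = 0.000396). Leaving out single libraries gave between -1.41 and -1.06. The authors' deposited table has -1.17 for GRF4 (adjusted p = 7.36e-08).

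GRF8 was the higher gene, from a low base. It had 41, 29 and 31 counts in prp4k3, against 4, 8 and 6 counts in Col-0, which is 1.79, 1.35 and 1.42 CPM in prp4k3 and 0.295, 0.542 and 0.444 CPM in Col-0. Each prp4k3 library exceeded each Col-0 library, a pattern that 36.5% of tested features shared. The rise was 1.81 ± 0.31 on the log2 scale (adjusted p = 0.000637) and 2.64 ± 0.31 with total-count scaling (adjusted p = 2.7e-05). Without single libraries it ranged from 1.597 to 2.01. The Col-0 level rests on 18 counts in all, so the size of the rise is imprecise. GRF8 passed the filter on low counts only through the prp4k3 libraries, the group where it is high. With no filter the rise was 1.837 ± 0.355 (edgeR adjusted p = 0.000123). GRF8 is at 1.84 in the authors' deposited table (adjusted p = 1.93e-06).

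**Figure D2:**
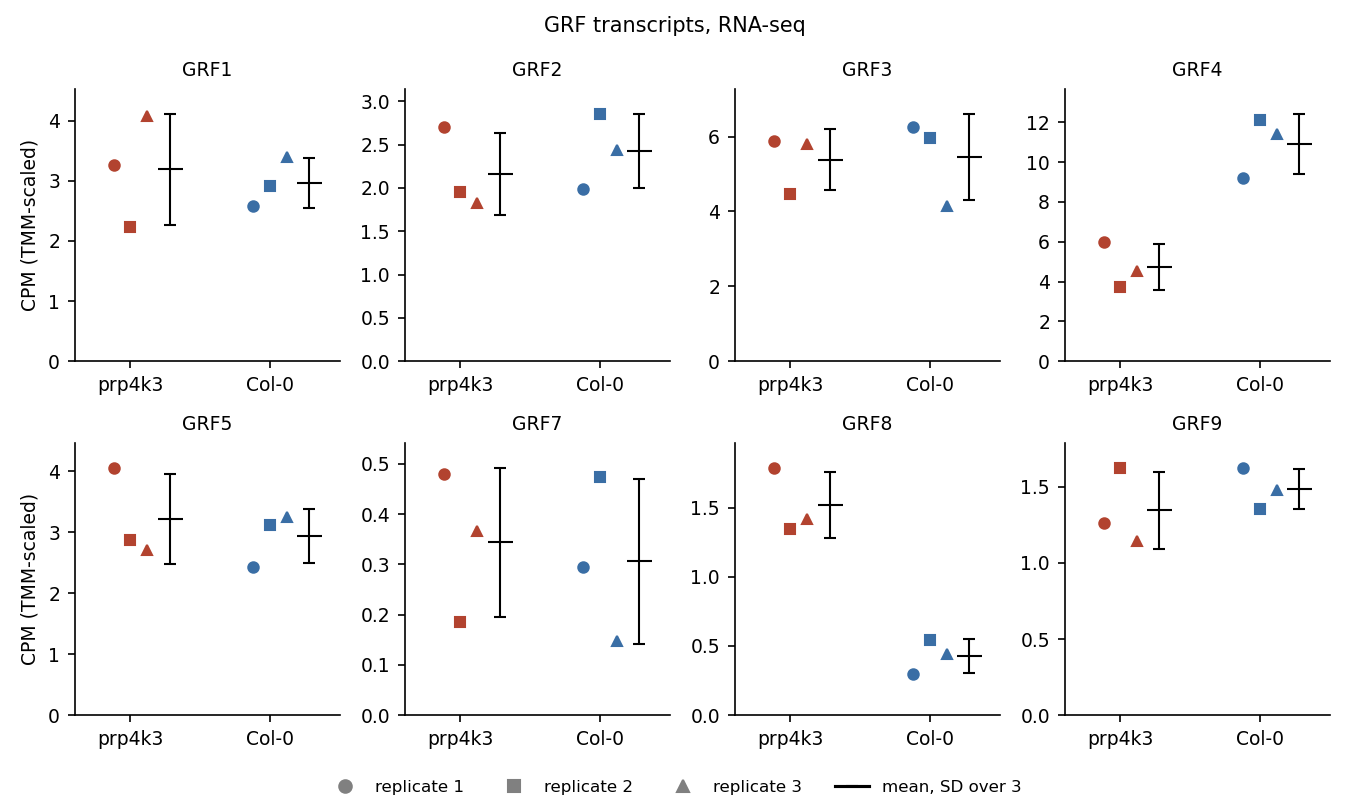
TMM-scaled CPM (vertical axes from 0, a separate scale for each gene) of the 8 GRF genes in the 3 prp4k3 and 3 Col-0 libraries; points are libraries and black bars are mean and SD. GRF4 separates the genotypes with prp4k3 lower (3.71 to 5.97 against 9.22 to 12.1 CPM) and GRF8 with prp4k3 higher (1.35 to 1.79 against 0.295 to 0.542 CPM); in the other 6 genes the libraries overlap.

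GRF1, GRF2 and GRF3, which act redundantly in leaf and cotyledon expansion, were not called. GRF3 had 5.89, 4.46 and 5.81 CPM in prp4k3, against 6.27, 5.97 and 4.14 CPM in Col-0, and the libraries of the genotypes were interleaved (log2 fold change -0.02 ± 0.19, adjusted p = 0.932). GRF1 had 3.27, 2.23 and 4.07 CPM in prp4k3 and 2.58, 2.92 and 3.404 CPM in Col-0, with both the lowest and the highest value in prp4k3 (0.11 ± 0.24, adjusted p = 0.712). GRF2 averaged 2.16 ± 0.474 CPM in prp4k3 and 2.43 ± 0.429 CPM in Col-0 (-0.17 ± 0.23, adjusted p = 0.538). With total-count scaling GRF1 lay at 0.95 ± 0.24 (adjusted p = 0.00424), GRF2 at 0.67 ± 0.24 (0.0241) and GRF3 at 0.82 ± 0.196 (0.00329), so the direction of GRF2 and GRF3 depends on the scaling and all 3 lay near the shift of the median gene.

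GRF5, a promoter of cell proliferation in leaf primordia that lacks the miR396 site, had 4.06, 2.88 and 2.70 CPM in prp4k3, against 2.43, 3.12 and 3.26 CPM in Col-0. The groups overlapped and the highest value was prp4k3 replicate 1 (0.13 ± 0.22, adjusted p = 0.611). GRF9, which restrains leaf cell proliferation, averaged 1.34 ± 0.25 CPM in prp4k3 and 1.49 ± 0.133 CPM in Col-0 (-0.14 ± 0.24, adjusted p = 0.614). With total-count scaling GRF5 lay at 0.97 and GRF9 at 0.695, both called. GRF7, a repressor of the drought and heat factor gene DREB2A, was the member below the filter. It had 11, 4 and 8 counts in prp4k3, against 4, 7 and 2 counts in Col-0. The ratio of the pooled counts on the TMM scale, 1.12, had an exact 95% counting interval of 0.542 to 2.4.

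**Figure D3:**
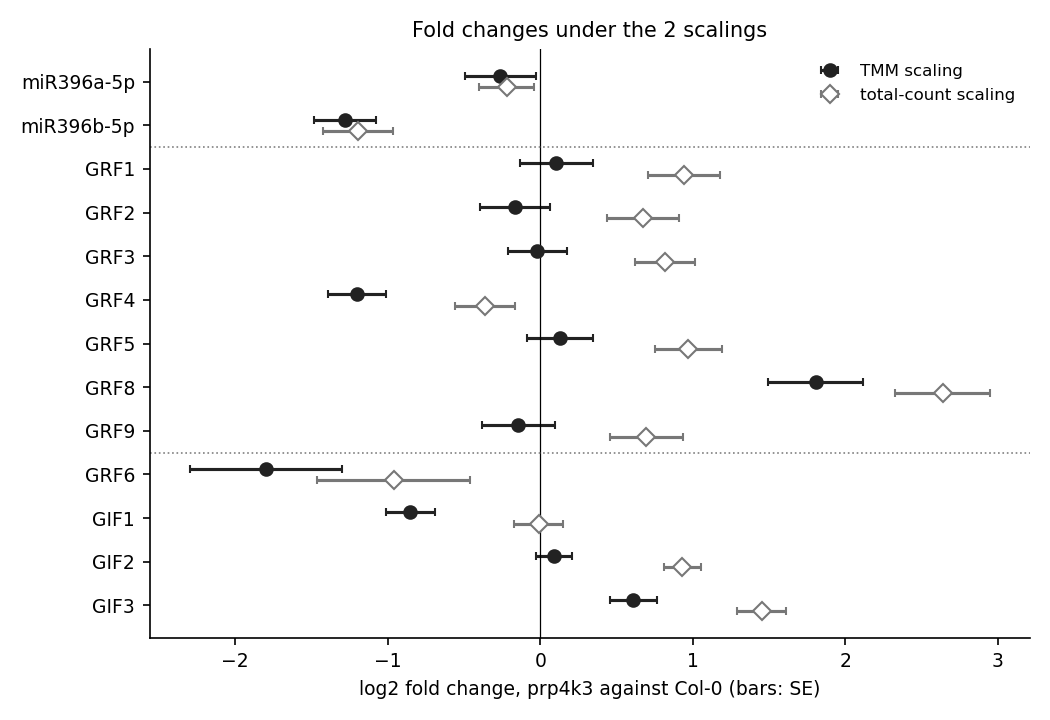
Log2 fold changes of prp4k3 against Col-0 (horizontal axis, bars are SE) for the miR396 guide strands, the 7 tested GRF members, and GRF6 with the GIF genes, with TMM scaling (filled circles) and total-count scaling (open diamonds). In RNA-seq the open symbols lie to the right by about the shift of the median gene (0.857), and GRF4 and GRF8 stand at opposite sides of the other GRF members under both scalings.

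The make-up of the GRF transcript pool was then compared inside each library, where no scaling enters. The 8 loci together held 583, 396 and 478 counts in prp4k3, against 335, 433 and 361 counts in Col-0; on the TMM scale the sum had a log2 fold change of -0.30 ± 0.14, and with total-count scaling of 0.54 ± 0.14. GRF4 made up 23.5%, 20.2% and 20.71% of these counts in prp4k3, against 37.31%, 41.34% and 42.66% in Col-0. GRF8 made up 7.03%, 7.32% and 6.485% in prp4k3 and 1.19%, 1.85% and 1.66% in Col-0. For both genes the genotypes did not overlap and the widest Wilson intervals did not touch between genotypes. GRF5 took 15.95%, 15.66% and 12.34% in prp4k3 and 9.85%, 10.62% and 12.19% in Col-0, a small margin between the nearest libraries. For these 3 genes the exact permutation p was 0.1, the smallest possible (adjusted p = 0.22 over 11 shares). GRF1, GRF2, GRF3, GRF7 and GRF9 overlapped, with an exact permutation p between 0.2 and 0.7. A share shows unequal change among the 8 genes and does not say which of them changed.

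**Figure D4:**
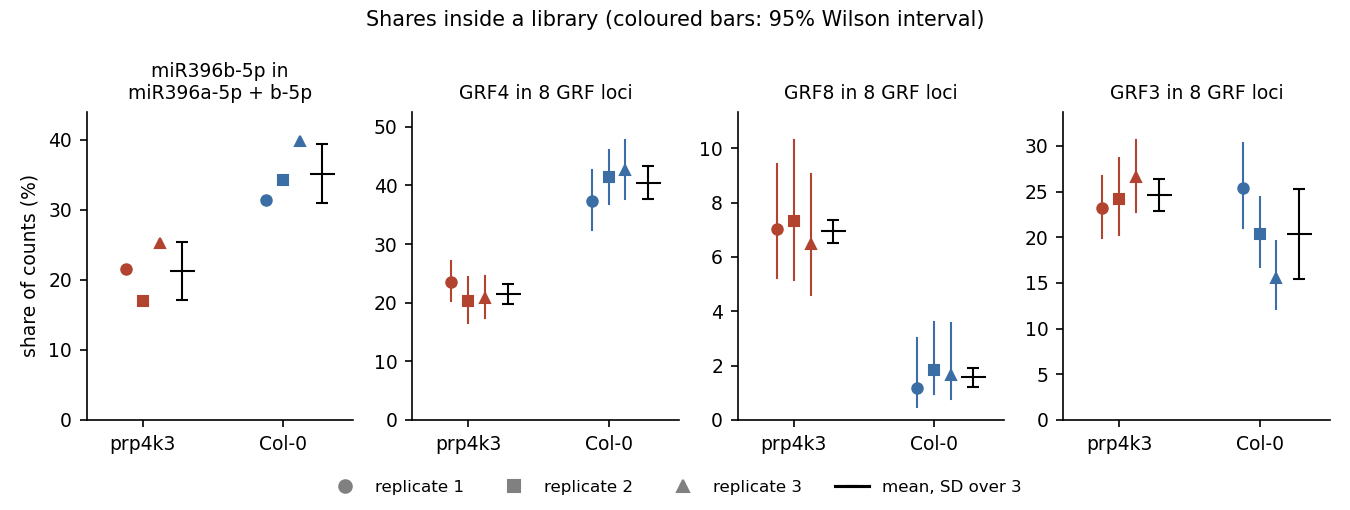
Shares of counts inside each library (percent, vertical axes from 0): miR396b-5p in the reads of miR396a-5p plus miR396b-5p, and GRF4, GRF8 and GRF3 in the counts of the 8 GRF loci; coloured bars are 95% Wilson intervals and black bars are mean and SD over 3 libraries. The GRF4 share is 21.47% in prp4k3 and 40.44% in Col-0 on average, the GRF8 share 6.95% in prp4k3 and 1.57% in Col-0, while GRF3 overlaps.

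GRF6 and the GIF coactivators did not move as 1 group. GRF6 (AT2G06200) had 0.523, 0.975 and 0.412 CPM in prp4k3, against 0.811, 2.37 and 3.48 CPM in Col-0. It fell by 1.80 ± 0.50 on the log2 scale (adjusted p = 0.00986), but the genotypes overlapped, Col-0 libraries spread widely, and with total-count scaling it was not called (-0.96, adjusted p = 0.103). GIF1 (AT5G28640, also ANGUSTIFOLIA3), the coactivator best known for leaf cell number, had 3.14, 3.67 and 3.39 CPM in prp4k3, against 7.08, 5.49 and 5.85 CPM in Col-0, with no overlap. Its fall was 0.85 ± 0.16 (adjusted p = 0.00111), while with total-count scaling it lay at -0.01 (adjusted p = 0.957).

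GIF3 (AT4G00850) had 6.15, 5.34 and 6.13 CPM in prp4k3, against 3.76, 4.27 and 3.48 CPM in Col-0. The genotypes did not overlap, and it rose by 0.61 ± 0.15 (adjusted p = 0.00582) and by 1.45 with total-count scaling (adjusted p = 1.64e-05). GIF2 (AT1G01160) averaged 14.0 ± 1.48 CPM in prp4k3 and 13.2 ± 0.313 CPM in Col-0 and was not called (0.09 ± 0.12, adjusted p = 0.52). Thus on the TMM scale GRF6 and GIF1 were lower, GIF3 higher and GIF2 not called, beside 31.9% of all features lower and 33.9% higher. With total-count scaling 2 of the 4 were higher and none lower, beside 67.1% and 9.81% of all features. No overlap was seen in 34% of all features with prp4k3 lower, as in GIF1, and in 36.5% with prp4k3 higher, as in GIF3.

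Genes of SWI/SNF complexes that work with GIF1 included more that rose than fell. Of 8 tested, 5 rose and 1 fell, beside 33.9% and 31.9% of all features, with a median log2 fold change of 0.608, beside 0.017 for all features. With total-count scaling 7 were higher and none lower, beside 67.1% and 9.81% of all features. The ATPase gene BRM had 47.4, 54.7 and 44.2 CPM in prp4k3, against 19.2, 20.4 and 19.9 CPM in Col-0, a rise of 1.296 ± 0.12 (adjusted p = 1.08e-05). SWI3C, a core subunit, rose by 1.11 ± 0.12 (adjusted p = 4.3e-05) and SYD, the other ATPase, by 1.24 ± 0.17 (adjusted p = 0.000178). SWI3B was the gene that fell (-0.71 ± 0.15, adjusted p = 0.00261), though it lay at 0.13 with total-count scaling (adjusted p = 0.442).

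Other genes listed as reported miR396 targets included none that was called higher. Of 4 tested, 3 fell (median -0.731), where 31.9% of all features were called lower. With total-count scaling 2 were higher and 1 lower, beside 67.1% and 9.81% of all features. FLU (AT3G14110), a repressor of chlorophyll precursor synthesis, had 21.5, 23.7 and 24.9 CPM in prp4k3, against 62.8, 58.0 and 61.9 CPM in Col-0, and fell by 1.38 ± 0.11 (adjusted p = 4.54e-06), also under total-count scaling (-0.54, adjusted p = 0.000865). AT2G40760 fell by 0.97 ± 0.13 (adjusted p = 0.000121), and was not called with total-count scaling (-0.13, adjusted p = 0.384). AT1G10120, a bHLH transcription factor gene with the synonym CIB4 in the reference table, fell by 0.49 ± 0.13 (adjusted p = 0.00707) but lay at 0.35 with total-count scaling (adjusted p = 0.0345). RD21B (AT5G43060), a cysteine protease gene, was not called (0.26 ± 0.14, adjusted p = 0.123).

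CIN-type TCP genes encode transcription factors that limit leaf cell proliferation, and TCP4 among them activates MIR396. Of 5 tested, 3 were lower and none higher (median -0.522), beside 31.9% lower and 33.9% higher among all features. TCP4 had 9.59, 7.06 and 8.05 CPM in prp4k3, against 12.5, 11.7 and 11.4 CPM in Col-0, with no overlap, as in 34% of all features. It fell by 0.52 ± 0.14 (adjusted p = 0.00888), though it lay at 0.32 with total-count scaling (adjusted p = 0.067). TCP10 fell by 0.89 ± 0.12 (adjusted p = 0.000132) and TCP2 by 0.96 ± 0.21 (adjusted p = 0.00271). Neither was called with total-count scaling (-0.05 and -0.12), where 2 of the 5 were higher and none lower (67.1% and 9.81% of all features).

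Cell division genes of growing leaves went both ways. Of 15 tested, 4 were higher and 4 lower (median 0.078), beside 33.9% and 31.9% of all features. With total-count scaling 12 were higher and none lower, beside 67.1% and 9.81% of all features. Of the 4 lower genes, CDKB2;1 (-0.44 with TMM) lay at 0.3995 with that scaling and was called higher (adjusted p = 0.0352), and CYCB1;4 (-0.67 with TMM) lay at 0.18, not called. MYB3R4, an activator of mitotic genes, averaged 4.76 ± 0.376 CPM in prp4k3 and 2.20 ± 0.144 CPM in Col-0, a rise of 1.11 ± 0.16 (adjusted p = 0.000253). CYCD3;2, a cyclin of the G1 phase, fell by 0.68 ± 0.11 (adjusted p = 0.000411), with 0.17 under total-count scaling (adjusted p = 0.188). CDKB1;2, a mitotic kinase gene, fell by 1.01 ± 0.22 (adjusted p = 0.00296; -0.18 and not called under total-count scaling).

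Leaf size regulators were likewise mixed. Of 16 listed, 13 were tested, with 3 higher and 4 lower (median 0.0584), beside 33.9% and 31.9% of all features. With total-count scaling 7 were higher and 1 lower, beside 67.1% and 9.81% of all features, and PPD2 (-0.59 with TMM) and ZHD5 (-0.71 with TMM) then lay at 0.25 and 0.13, not called. DA1, a peptidase that limits organ growth, had 12.3, 12.7 and 11.6 CPM in prp4k3, against 3.32, 2.64 and 4.14 CPM in Col-0, a rise of 1.86 ± 0.17 (adjusted p = 1.13e-05). BB (BIG BROTHER), a ubiquitin ligase that also limits growth, fell by 1.76 ± 0.22 (adjusted p = 9.47e-05), and EBP1, a growth promoter, rose by 0.78 ± 0.15 (adjusted p = 0.00118).

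Genes listed as acting downstream of GRF or GIF proteins were read last. Of 8 listed, 7 were tested, with 2 higher and 4 lower (median -0.746), beside 33.9% and 31.9% of all features; HEC1 had no count. With total-count scaling 3 were higher and 1 lower, beside 67.1% and 9.81% of all features. COL5 (-0.75 with TMM) and ARR4 (-0.79 with TMM), both called lower, then lay at 0.094 and 0.051, not called. DREB2A, the gene that GRF7 represses, had 2.97, 6.17 and 3.98 CPM in prp4k3, against 0.516, 0.542 and 0.888 CPM in Col-0. It rose by 2.74 ± 0.37 (adjusted p = 0.000127), with no overlap, as in 36.5% of all features. CRF2, a cytokinin response factor gene, fell by 1.54 ± 0.16 (adjusted p = 2.4e-05), and the cytokinin oxidase gene CKX6 fell by 1.11 ± 0.15 (adjusted p = 0.000152; -0.27 and not called under total-count scaling).

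Because GRF genes are most active in dividing tissue, markers of other tissues were read beside them. Beside the calls of all markers given here, 33.9% of all features were called higher and 31.9% lower. With total-count scaling these shares were 67.1% and 9.81%. Mesophyll markers held 12335 to 13017 summed CPM in prp4k3 and 39783 to 42684 summed CPM in Col-0, and all 4 fell. Flower markers summed to 7.15, 1.49 and 3.16 CPM in prp4k3, against 0.442, 0.882 and 0.518 CPM in Col-0, and prp4k3 replicate 1 was highest. Of the 4, only AP1 passed the filter, and it rose. It passed only through prp4k3, the group where it is high (42, 11 and 25 counts, against 0, 2 and 1 in Col-0). Shoot apex markers summed to 13.4, 8.64 and 8.60 CPM in prp4k3 and 8.63, 11.1 and 9.62 CPM in Col-0. Of these 6, 3 were tested, with KNAT1 higher and STM lower (STM was not called with total-count scaling). CLV3 had 0 counts in prp4k3 and 1, 1 and 1 in Col-0. WUS had 3, 1 and 1 counts in prp4k3 and 0 in Col-0, so both lay at or below the floor of 3 counts. Dividing cell markers summed to 15.2 to 17.9 CPM in prp4k3 and 13.9 to 16.7 CPM in Col-0, with 1 of 3 higher and 1 lower, or all 3 higher with total-count scaling. Of 4 root markers, PLT1 and RHD6 were at 0 in every library, and SHR and SCR, which leaves also express, summed to 18.6 to 27.8 CPM in prp4k3 and 28.5 to 43.5 CPM in Col-0, SHR being lower in prp4k3 on the TMM scale but not called with total-count scaling (0.24).

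prp4k3 replicate 1, the library highest in flower and shoot apex markers, was also the highest prp4k3 library in GRF2, GRF3, GRF4, GRF5, GRF7 and GRF8. GRF1 was highest in replicate 3 and GRF9 in replicate 2. Among prp4k3 libraries, dividing cell markers were highest in replicate 2 (17.87 summed CPM, against 16.05 and 15.24 in replicates 1 and 3). Replicate 2 was the lowest prp4k3 library in GRF1, GRF3, GRF4, GRF7 and GRF8. Without prp4k3 replicate 1 the log2 fold change was -1.41 ± 0.19 for GRF4 (adjusted p = 0.000379), 1.67 ± 0.35 for GRF8 (adjusted p = 0.00353) and -0.08 ± 0.21 for GRF5 (adjusted p = 0.766). The part of tissue make-up in these results was not tested further, and in bulk leaf RNA fewer cells of a type and less RNA per cell cannot be told apart.

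**Figure D5:**
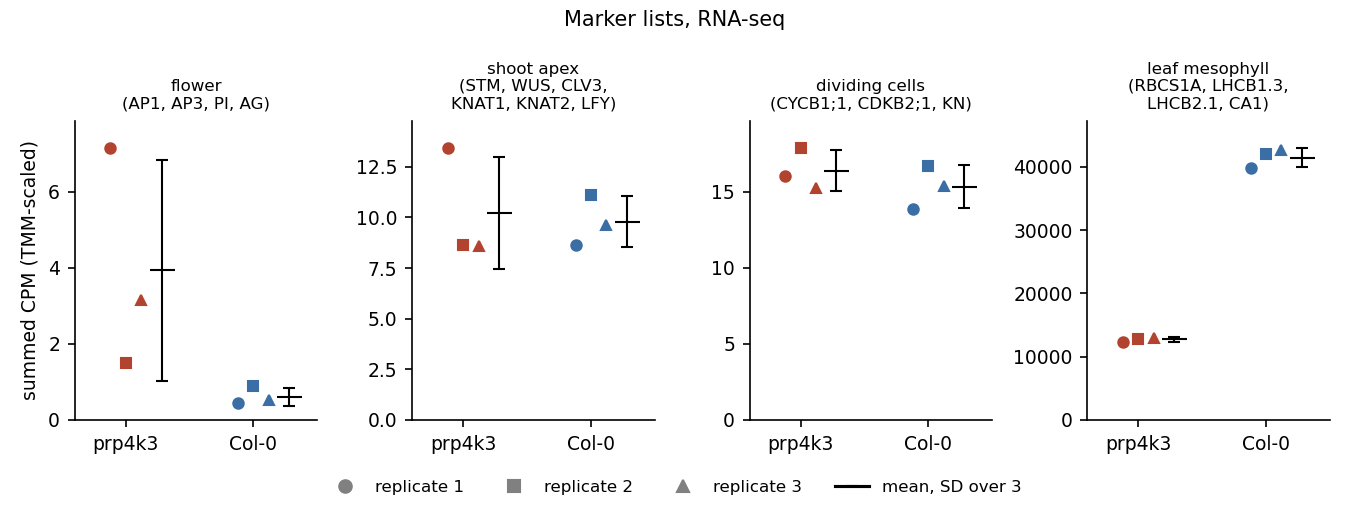
Summed TMM-scaled CPM (vertical axes from 0) of marker lists for flower, shoot apex, dividing cells and leaf mesophyll in the 3 prp4k3 and 3 Col-0 libraries; points are libraries and black bars are mean and SD. Flower markers are highest in prp4k3 replicate 1 (7.15 CPM), apex and dividing-cell markers overlap between genotypes, and mesophyll markers are lower in prp4k3.

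Features with the most similar profiles were named by the root mean square difference of their log2 CPM, each taken relative to its own Col-0 mean, over the 6 libraries. For miR396b-5p, among 214 other miRNA rows of at least 10 CPM, they were ath-miR169f-3p (0.168), ath-miR169g-5p (0.189) and ath-miR169f-5p (0.193), which had log2 fold changes of -1.20 ± 0.16, -1.05 ± 0.16 and -1.04 ± 0.16. The miR169g-5p and miR169f-5p means were nearly equal (331.3 and 332.9 CPM in prp4k3, 684.8 and 685.2 CPM in Col-0). Whether these rows share reads was not tested. For miR396a-5p the most similar were ath-miR5026, ath-miR398b-5p and ath-miR398c-5p, all at 0.107, of which the last pair had the same level in every library. For GRF4, the GRF member with the highest mean CPM over the 6 libraries (GRF3 was higher in prp4k3), they were FLA11 (AT5G03170, 0.0968), which encodes a fasciclin-like arabinogalactan protein, PLSP1 (AT3G24590, 0.114), a plastid signal peptidase gene, and GRH1 (AT4G03190, 0.122), an F-box gene of the auxin receptor family, among 5811 genes with a symbol and at least 5 CPM. These are descriptions of 6 libraries that share their scaling factors.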

How the data were processed

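Leaf RNA-seq (a stranded total RNA kit, per the labels' protocols) and small RNA-seq of prp4k3 and Col-0 were used, 3 libraries per genotype and assay. The authors deposited read counts per gene, transposable element or noncoding locus, and per named miRNA, per the file headers; these counts carry no normalization. The authors' deposited tables also hold a log2 fold change and an adjusted p-value per feature, per the file headers. Tools were TopHat2, SAMtools, HTSeq and edgeR, per the submitters' processing notes; the sources used here do not give their versions, the genome build, the strand setting or the treatment of multi-mapping reads, so counts of paralogs, overlapping genes and the miR396a and miR396b pair are uncertain, and no coordinates or sequences are printed.

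The test was that of edgeR 4.0.16, run under R 4.3.3 (filterByExpr, TMM, quasi-likelihood F-test of genotype, Benjamini-Hochberg over all 18609 genes or 215 miRNAs; called at an adjusted p under 0.05). SE is the log2 fold change divided by the root of F. Sums over members get no p. Simulated data with known changes were tested first. For genes 70% of 2-fold and 100% of 4-fold changes were recovered, and for miRNAs 60% and 85%. The simulation changed only a minority of features, as many up as down. It therefore does not bear on the choice of scaling or on data where 65.8% of features are called. Members and lists were chosen with earlier results of these data known. Named genes outside the members are the GIF genes, GRF6, the other listed targets, the PRP4K genes and, per list, the 3 called genes with the lowest adjusted p; the split by miR396 site, the PRP4K check and other singled-out genes were added after values were seen. Symbols come from the RefSeq table of TAIR10.1. Alternatives were RLE, total-count and upper-quartile factors, DESeq2 1.42.0, no filter, organelle genes or repeated rows left out, a replicate block, and each library left out. In a chi-square comparison all library pairs within a group differed beyond sampling noise.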

Additional observations from a re-analysis of the deposited data

How the results depend on the processing

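The number of called features stayed within 1.5 times under every alternative run, between 11042 and 14306 genes and between 56 and 103 miRNAs, and the GRF genes called were GRF4 and GRF8 in 11 of 12 alternatives. Total-count scaling called 6 GRF genes and put the GRF sum at 0.543; leaving out single libraries gave -0.42 to -0.20 for that sum. The miR396 sum was -0.40 with repeated rows kept once, and -0.62 to -0.20 with single libraries left out. miR396b-5p passed and was lower under each of 13 alternatives (-1.29 to -0.99, adjusted p at most 0.0304). Among the genes followed under every alternative, total-count scaling turned the direction of GRF2 (0.67), GRF3 (0.82), GRF9 (0.695), AT1G10120 (0.35), TCP4 (0.32), CYCD3;2 (0.17), AT3G25840 (0.16) and AT1G13350 (0.43). The median of all genes then lay at 0.857. Other genes named above that turned included SWI3B, CDKB2;1, CYCB1;4, PPD2, ZHD5, COL5, ARR4 and SHR. Values near 0 changed sign elsewhere. GRF3 was at 0.0116 with no filter and between -0.19 and 0.087 when single libraries were left out (0.087 without prp4k3 replicate 2, 0.078 without Col-0 replicate 1, 0.041 without Col-0 replicate 2). The same omissions gave -0.11 (without prp4k3 replicate 3) to 0.296 for GRF1, -0.079 (without prp4k3 replicate 1) to 0.24 for GRF5, -0.0033 (without prp4k3 replicate 3) to 0.14 for GIF2, and -0.39 to 0.094 for miR396a-5p (0.094 without prp4k3 replicate 1, 0.078 without replicate 3). The causes were not tested. Of 436 single-gene results under an alternative, 402 kept direction and call, 10 were weaker, 7 stronger and 17 reversed. This count pools all alternatives, many of which changed little. Total-count scaling alone changed the call or direction of most RNA-seq genes followed. The replicate numbers gave no sign of pairing the libraries. Same-numbered RNA-seq libraries had deviations correlated at -0.049, 0.043 and -0.044, and small RNA libraries at -0.248, -0.015 and -0.082. Differently numbered libraries reached 0.146 in RNA-seq and 0.16 in small RNA-seq. With 3 libraries a group this check cannot exclude pairing. With the replicate block miR396b-5p was at -1.28 (adjusted p = 0.000312) and 2 GRF genes were called. GRF7, MIR396A and MIR396B are limited by depth.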
